A study of Medicago truncatula with 21 samples.

Results

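The last part of seed development, from the filling seed to the dry seed, was followed in the abi4-1 line of the legume Medicago truncatula. The comparison set 3 libraries of mature abi4-1 seeds against 3 libraries of abi4-1 seeds taken 24 days after pollination (DAP), which are 6 of the 21 libraries of the series and were chosen by their labels. By its line name abi4-1 belongs to a collection of insertion lines of the Tnt1 retrotransposon in the background R108. It is 1 line of that allele, so what else its plants carry cannot be told apart from the abi4 allele. Wild-type R108 seeds of the same 2 stages (3 libraries each), abi4-1 seeds at 13 DAP (3 libraries) and mature seeds of a second line, abi4-2 (3 libraries), are used for reference. All plants were grown in a culture room without a treatment named in the labels, and each library is RNA of whole seeds. The design text of the series describes replicates as pools of seeds from different plants, but it names lines of another gene than the sample titles do, and groups were taken from the sample titles and genotype labels. Whether that pooling holds for abi4-1 is not stated, and the p-values then cover the spread between these samples, which may be technical.

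The protein ABI4 binds DNA through an AP2/ERF domain and acts in abscisic acid and sugar signalling, mostly studied in Arabidopsis seeds. During filling, a legume embryo makes large amounts of storage proteins from a small set of very abundant mRNAs, encoded in part by gene families with neighbouring copies. In late maturation the seed stops filling, loses chlorophyll, gains desiccation tolerance and dries, and the dry seed keeps a store of mRNAs made before drying. The identifiers of the expression table are not paired with gene names, and 0 of 44473 matched the reference gene table of another annotation, so no transcript below is given a name or a role beyond the genome that encodes it. The ABI4 transcript itself was for that reason not examined.

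Deposited totals of the 6 libraries lay between 18365151 and 20619118 normalized counts, which correspond to an estimated 18862271 to 22673026 reads. By the values, the stages appear to have been scaled separately before deposit, so each library was first divided by its median ratio to the geometric mean of all 21 libraries, and levels below are normalized counts on that common scale. They are not per length, so a ranking of transcripts is a ranking by reads. On this scale 1 read is worth 1.45 to 1.98 at 24 DAP but 0.864 to 0.916 in mature seeds, and low levels are therefore coarser at 24 DAP. Replicates were close, with log2 correlations of 0.978 to 0.988 within a stage. The median SD of a transcript between replicates, at levels of 100 to 1000, was 0.144 on the log2 scale at 24 DAP and 0.0999 in mature seeds.

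The few transcripts that filled the 24 DAP libraries made up a small share of the mature ones. At 24 DAP, 5 transcripts were enough to reach 50% of the reads in each of the 3 libraries. In mature seeds it took 889, 918 and 881 transcripts, and at 13 DAP between 1275 and 1343. The 20 transcripts with most reads at 24 DAP made up 61.8, 65.1 and 64.1% of the 24 DAP libraries and 0.981, 1.17 and 0.981% of the mature ones. The stages did not overlap. The 10 leading transcripts of each library held 60.2% ± 1.84 of the reads at 24 DAP and 5.95% ± 0.0965 in mature seeds (SD, n = 3), against 5.54% ± 0.290 at 13 DAP.

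**Figure D1:**
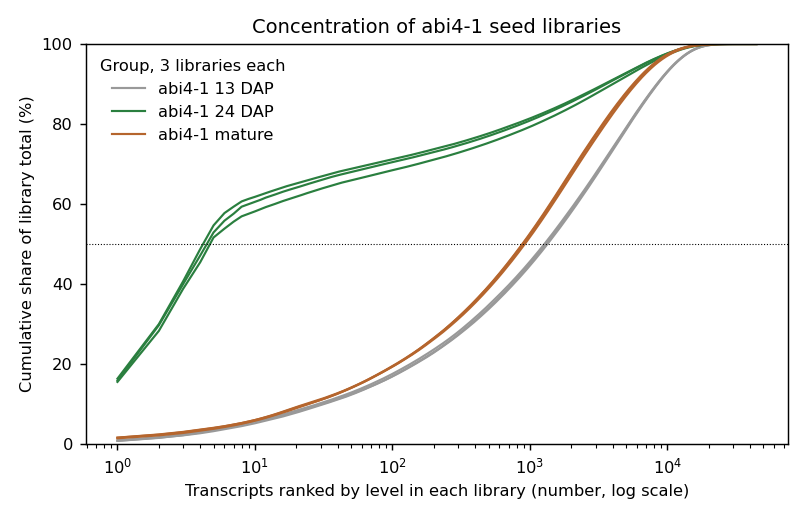
Cumulative share of the library total (%) against the number of transcripts, ranked from highest to lowest within each library (log scale), for 9 abi4-1 libraries. The 24 DAP curves cross 50% at 5 transcripts, whereas the mature curves cross it between 881 and 918.

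Each of the 20 leading transcripts of 24 DAP fell, by 4.44-fold to 3540-fold with a median of 86.0-fold (limma, adjusted p under 0.05 for 20 of 20). Of all 21715 transcripts tested, 46.2% were called lower. Leaders were ranked by a level that enters the change, so their counts are a description. MtrunA17_Chr1g0185811, on chromosome 1, led the 24 DAP libraries with 5104614, 6114312 and 5724437 normalized counts. In mature seeds it stood at 3844, 6723 and 4617. Every mature library was far below every 24 DAP library, and the log2 change was -10.16 ± 0.32 (SE, limma adjusted p = 1.5e-08). MtrunA17_Chr1g0185821, the next identifier on the chromosome, was at 2192436, 3025384 and 2590242 normalized counts at 24 DAP and at 567, 987 and 652 in mature seeds. Its log2 change of -11.82 ± 0.23 (limma adjusted p = 2.2e-09) was the largest fall among nuclear transcripts at 10 or more in each of the 6 libraries whose call also held with values as deposited, with column totals and without each library in turn.

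Several leaders of 24 DAP lie side by side. Both of these transcripts and the third-ranked one are near neighbours on chromosome 1, and the 3 together made up 32.7, 35.1 and 33.3% of the 24 DAP libraries and 0.0374, 0.0654 and 0.0406% of the mature ones. At 13 DAP they had made up 1.54, 1.11 and 1.43%, so their level before filling was between those of the later stages. Mature library 2 held more of them than the other mature libraries, at 11059 summed normalized counts against 6612 and 7285. Among the 20 leaders of 24 DAP, 11 lay within 5 tested identifiers of another leader, and chromosomes 1, 2 and 7 carried 16 of the 20 (4, 5 and 7). Among the 20 leaders of the mature seed 2 did. Whether reads were split between near-identical copies was not tested, since no sequences of these identifiers were used here.

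Falls differed in size within this group. The second-ranked transcript, on chromosome 7, was at 4186388, 5092923 and 4990773 normalized counts at 24 DAP and at 59217, 59763 and 58751 in mature seeds. It was therefore still ranked 14 in the mature seed after an 80.3-fold fall (log2 change -6.32 ± 0.53, limma adjusted p = 4.0e-06), the 1 transcript among the 20 leaders of both stages. The fifth-ranked one, on chromosome 1 but not next to the other 3, fell 91.7-fold, from 2105502 ± 93885 to 22969 ± 2292 (SD, n = 3). The smallest fall among the 20 was 4.44-fold, in the transcript ranked seventeenth, on chromosome 5. At 13 DAP all 20 had been below their 24 DAP level, and 10 of the 20 had been below even their mature level.

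The mature seed was led by other transcripts. Of its 20 leaders 17 were called higher than at 24 DAP, 1 was called lower and 2 were not called, and 13 rose by at least 4-fold. Of all transcripts tested 39.8% were called higher, and 14.6% by at least 4-fold. These leaders too were ranked by a level that enters the change, so their counts are a description. MtrunA17_Chr7g0257731, on chromosome 7, ranked first with 286798, 246166 and 287405 normalized counts in mature seeds. At 24 DAP it was at 508, 461 and 740, and at 13 DAP at 377, 96.2 and 114. The stages did not overlap, and the rise was 480-fold (log2 change 8.93 ± 0.17, limma adjusted p = 2.1e-09). Its neighbour in the numbering, MtrunA17_Chr7g0257741, rose from 99.9, 90.9 and 161 to 58411, 51133 and 60982 normalized counts, a log2 change of 8.95 ± 0.19 (limma adjusted p = 3.2e-09). That was the largest rise by the same rule, and the first of the pair had 4.71 to 4.91 times the reads of the second in the mature libraries.

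**Figure D2:**
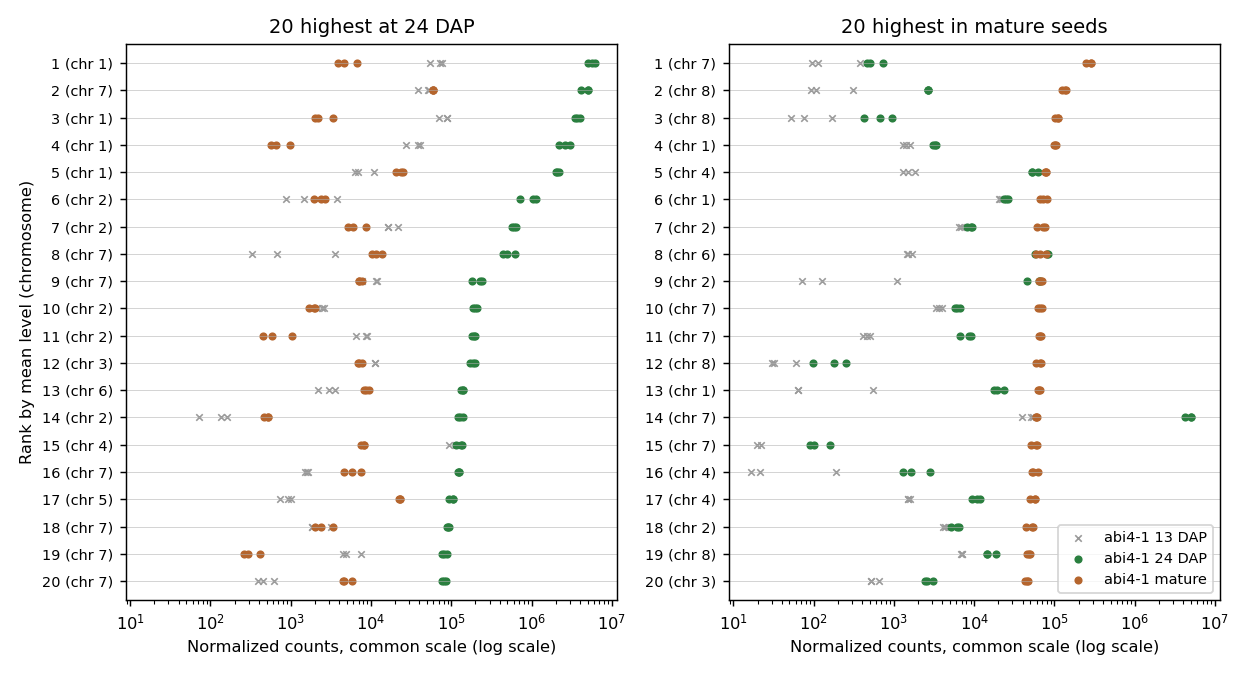
Normalized counts on the common scale (log scale) of the 20 transcripts with the highest mean at 24 DAP (left) and in mature seeds (right) of abi4-1, by rank and chromosome, with 1 point for each of 3 libraries at 13 DAP, 24 DAP and maturity. On the left every mature point lies below the 24 DAP points. On the right this also holds for the transcript ranked 14, and 13 of 20 rose by at least 4-fold.

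Other leaders of the mature seed differed in how abundant they had already been at 24 DAP. The second-ranked transcript, on chromosome 8, rose 50.1-fold from 2646 ± 7.93 to 132491 ± 8882 normalized counts, and the one ranked 4, on chromosome 1, rose 31.8-fold. In contrast, the fifth, on chromosome 4, stood at 55745 at 24 DAP and rose 1.40-fold (limma adjusted p = 0.0294). The eighth, on chromosome 6, was at 82517, 57955 and 81619 normalized counts at 24 DAP and at 65362, 77390 and 58559 in mature seeds, with overlapping stages and no call (adjusted p = 0.586). All 20 had a lower mean at 13 DAP than in the mature seed, with a median level of 999 at 13 DAP, 7167 at 24 DAP and 65939 at maturity. Of the 100 highest transcripts of each stage, 25 were shared.

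Beyond the leaders, most of the transcriptome moved. Among 21715 transcripts tested, 8646 were called higher in mature seeds (39.8%) and 10029 lower (46.2%). Groups that did not overlap were slightly more frequent than calls, at 40.6% higher and 46.9% lower. On the common scale, changes of at least 4-fold were more often falls, with 3172 transcripts up (14.6%) and 5755 down (26.5%). That balance turned with values as deposited, at 6249 up and 3726 down, and with column totals, at 6522 up and 3945 down. At 16-fold and more there were 904 rises and 2700 falls on the common scale. The middle of the distribution lay near 0, with a median log2 change of -0.18, with percentile 5 at -5.65 and percentile 95 at 3.68.

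The balance of rises and falls depended on the scale, over all calls as over those of at least 4-fold. With values as deposited the median of all tested transcripts was at 0.91, and 12259 were called higher and 6373 lower. With column totals it was at 0.90, with 12477 higher and 6555 lower. Of the 3172 rises of at least 4-fold 3097 were also called higher under all 5 other scales tried, and of the 5755 falls 5199 were also called lower. For this only the direction and a limma adjusted p under 0.05 were required, not the 4-fold size. Levels are relative within a library, so a rise says that a transcript gained reads against the others; in whole seeds, fewer cells of a type and less RNA per cell cannot be told apart.

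**Figure D3:**
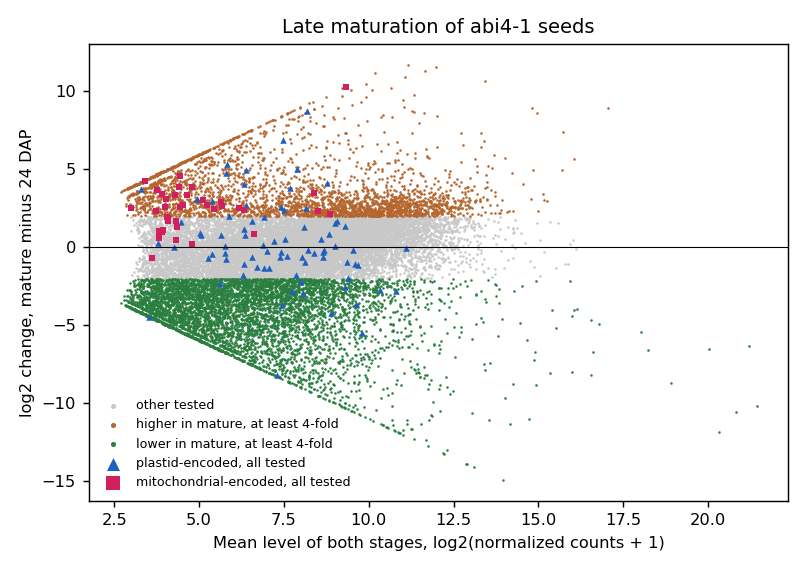
log2 change of abi4-1 seeds (mature minus 24 DAP) against the mean level of both stages, log2(normalized counts + 1), for 21715 transcripts. Coloured points are called at an adjusted p under 0.05 and changed at least 4-fold, 3172 upwards and 5755 downwards; counting organelle transcripts, which are drawn as triangles and squares whether called or not; the slanted edges are transcripts near 0 at 1 stage.

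Part of these changes ran from present to near-absent or the reverse. At 10 or more normalized counts in each 24 DAP library and below 3 in each mature library were 1628 transcripts (7.5% of those tested), and 624 showed the opposite (2.87%). With values as deposited these counts were 1157 and 847, and with column totals 1174 and 932. The size of the excess of losses therefore depended on the scale. The transcripts lost had a median level of 49.0 at 24 DAP and the highest reached 31466, with 63 at 1000 or more. The transcripts gained had a median of 31.5 in mature seeds, and 9 reached 1000. At 13 DAP, 1335 of the 1628 lost transcripts (82.0%) had a mean of at least 10, and 30 of the 624 gained ones (4.81%). Of all 21715 tested, 2492 had a mean under 10 at 13 DAP. Both sets are defined by their 24 DAP level, so a 13 DAP level near it gives this contrast. Nothing further is read from it. Below 3 at 24 DAP corresponds to about 2 reads or fewer, so lower levels at that stage were not detectable at this depth.

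The 13 DAP libraries, which the comparison did not use, were set beside the 4-fold changes. Rises and falls were chosen by their distance from the mature level, so where they stand against it at 13 DAP is a description. Transcripts that rose had median levels of 29.8 at 13 DAP, 35.6 at 24 DAP and 389 in mature seeds, and 43 of 3172 (1.36%) were as high at 13 DAP as at maturity. Transcripts that fell had medians of 172, 145 and 6.31, and 5455 of 5755 (94.8%) were higher at 13 DAP than or equal to their mature level. Of the 12788 tested transcripts in neither set, 5757 (45.0%) were at or above their mature level at 13 DAP. Grouped by level at 13 DAP, transcripts under 10 rose by at least 4-fold in 1237 of 2492 cases (49.6%), against 14.6% of all tested, and fell in 549 (22.0%, against 26.5%). A transcript under 10 at 13 DAP passed the filter only if it was higher at a later stage, which raises both shares. Transcripts at 1000 or more at 13 DAP rose by 4-fold in 177 of 3058 cases (5.79%) and fell in 947 (31.0%).

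Large falls were spread over all 8 chromosomes, from 24.8% of tested transcripts on chromosome 1 to 28.4% on chromosome 2. Rises ran from 13.2% on chromosome 2 to 16.4% on chromosome 1. Neighbours moved together more often than these shares: the tested identifier that follows a 4-fold fall had itself fallen 4-fold in 34.6% of cases, against 26.6% of all on the chromosomes, and the one that follows a 4-fold rise had risen in 22.2%, against 14.5%. The longest uninterrupted run of falls held 16 tested identifiers on chromosome 6, with log2 changes from -6.70 to -2.34. The next, with 13, lay on chromosome 7 with changes from -14.09 to -3.40. Rises ran to at most 7 in a row, on chromosome 3. These runs were found by looking along the order of identifiers and are given as a description.

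Summed over the 72 identifiers of the mitochondrial genome, levels were higher in the mature seed. They were at 703, 608 and 898 normalized counts at 24 DAP and at 6127, 3947 and 4386 in mature seeds. The stages did not overlap, and the mean was 6.55-fold higher. At 13 DAP the sum had been 477, 974 and 686, overlapping 24 DAP. Of the 72 identifiers 14, 13 and 18 were at 10 or more in the 24 DAP libraries and 39, 37 and 38 in the mature ones, so many of the 39 that passed the filter did so only through the mature group. Of those 39, 33 were called higher, 25 of them by at least 4-fold, and 0 lower (0 also at an unadjusted limma p under 0.05). The share called higher over all transcripts was 39.8%, but since the filter favours transcripts that are high in mature seeds, nothing is read from the comparison. With a filter of 50, 10 were called higher.

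Plastid-encoded transcripts, which serve photosynthesis and the plastid's own gene expression, moved in both directions. Of 79 tested among 85 identifiers 28 were called higher (35.4%) and 29 lower (36.7%), with log2 changes from -8.20 to 8.72 and a median of -0.18. Their sum was 36278, 20009 and 28053 normalized counts at 24 DAP and 19828, 19890 and 17977 in mature seeds. The 24 DAP libraries differed nearly 2-fold among themselves, and library 2 was close to the mature ones. The median took the other sign with values as deposited (0.83), with column totals (0.82) and without 24 DAP library 1 (0.043), so no direction is given for the plastid genome as a whole. The labels say that mRNA was enriched before library preparation; how organelle transcripts passed that step at each stage was not tested.

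**Figure D4:**
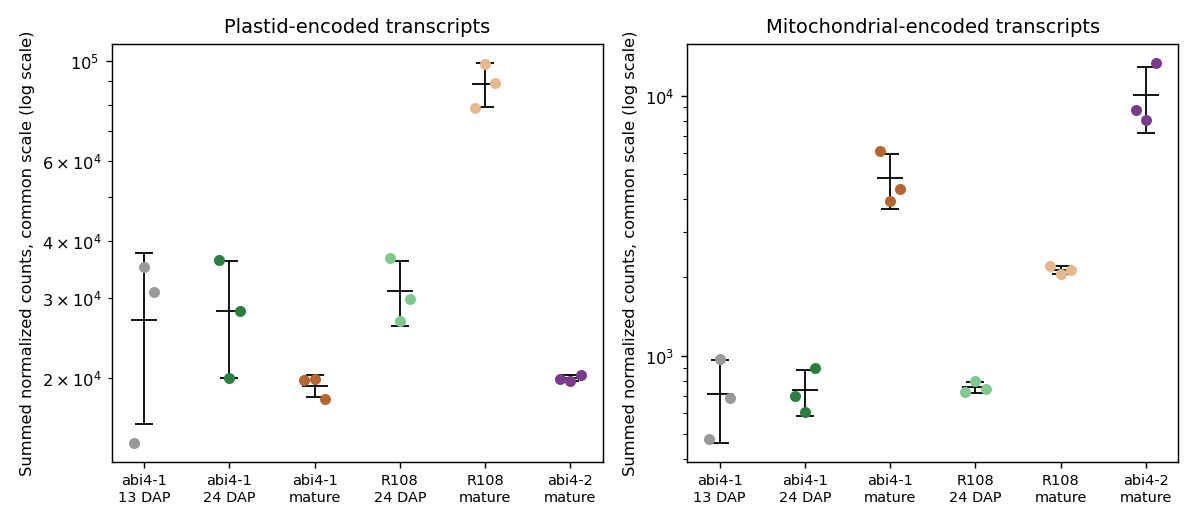
Summed normalized counts on the common scale (log scale) of plastid-encoded (left) and mitochondrial-encoded (right) identifiers, with 1 point for each library and bars for the mean ± SD of 3 libraries. Plastid sums of mature abi4-1 (17977 to 19890) lie below those of mature R108 (78558 to 98490), and mitochondrial sums of mature abi4-1 (3947 to 6127) lie above those of abi4-1 at 24 DAP (608 to 898).

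The same transition in R108, in libraries that share none with abi4-1, was broadly alike. Across 20627 transcripts tested in both, the log2 changes correlated at 0.958, a description over transcripts that are not independent. In R108 40.6% of 21282 transcripts were called higher and 46.3% lower, and changes of at least 4-fold were called upwards for 14.9% and downwards for 27.0%. The counts happened to equal those of abi4-1, at 3172 and 5755, but the transcripts were not the same ones: 2518 of the rises (79.4% of each list) and 4747 of the falls (82.5% of each) were shared. Of transcripts at least 4-fold lower in R108 with groups that did not overlap, 5448 were tested in abi4-1, and 5361 of them were called lower and 9 higher. Of the 3018 with the R108 rise 2956 were called higher and 7 lower. Of all 20627 transcripts tested in both, 45.5% were called lower in abi4-1 and 40.5% higher.

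Transcripts gained or lost in abi4-1 overlapped in part with those of R108. Of the 624 gained in abi4-1, 356 met the same bounds in R108, which is 57.0% of the abi4-1 list and 61.4% of the 580 of R108. Of the 1628 lost, 1129 did, which is 69.3% of the abi4-1 list and 57.0% of the 1980 of R108. In the second line, abi4-2, only mature seeds can be set beside them. There, 541 of the 624 gained transcripts (86.7%) were at 10 or more in each mature library. Of the 1628 lost ones, 1382 (84.9%) were below 3 in each mature library. The shares of all tested transcripts that met these bounds in mature abi4-2 were not computed. In abi4-1, 17382 of the 21715 tested were at 10 or more in each mature library, so most tested transcripts met the first bound there. Nothing is therefore read from the abi4-2 shares. The abi4-2 shares need the mature bound alone, whereas those of R108 need the bounds of both stages. The shares of abi4-2 and R108 are therefore not comparable, and nothing is read from their difference.

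The leader of rank 15 at 24 DAP, on chromosome 4, stood at different levels in the genotypes. In abi4-1 it was at 113430, 136456 and 132423 normalized counts at 24 DAP and at 8075, 8133 and 7451 in mature seeds, and it had been at 92300 to 133716 at 13 DAP. In R108 it was at 8745, 12461 and 6140 at 24 DAP and at 218, 1034 and 611 in mature seeds, so every abi4-1 library lay above every R108 library of its stage. Mature abi4-2 libraries lay between them, at 4403 to 4841. The difference between the changes was not called, at 0.067 on the log2 scale (limma adjusted p = 0.951). This transcript is described because it stood out from the other leaders after its values were seen. The mature leader of rank 8, on chromosome 6, had a called difference of 1.60 (limma adjusted p = 0.00069): it was not called changed in abi4-1, and in R108 it went from 79671 to 107054 at 24 DAP to 24590 to 32783 in mature seeds.

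Whether the change differed between the genotypes was tested as a difference of differences over 12 libraries, in which a scale factor common to a stage largely drops out. Of 22988 transcripts tested with limma, the change was more positive in abi4-1 for 2595 (11.3%) and more negative for 2087 (9.08%). Among the 9386 transcripts called lower in abi4-1 and tested in both, 1200 (12.8%) had a more positive change than in R108, with median log2 changes of -2.13 in abi4-1 and -3.59 in R108. Another 968 (10.3%) had a more negative one, with medians of -1.97 and -0.84. Both shares were near those of all transcripts. Called higher in abi4-1 but lower in R108, with the difference called, were 131 transcripts, and 102 were the reverse.

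Of the 20 leaders of 24 DAP, 15 had a more positive change than in R108 and 0 a more negative one, with a median log2 difference of 0.94. Of all transcripts tested, 11.3% had a more positive change and 9.08% a more negative one. The leaders were ranked by a level that enters this difference, so their counts are a description. At an unadjusted p under 0.05 limma gave 0 of these 20 more negative. Without single libraries the count more positive ran from 11, without R108 mature library 2 or 3, to 14. For MtrunA17_Chr1g0185811 the difference was 0.92 ± 0.29 (SE, limma adjusted p = 0.0374), a call lost under 11 of 20 alternatives. These were a pseudocount of 0.1, a filter of 50, and leaving out abi4-1 24 DAP library 1 or 3, abi4-1 mature 2 or 3, R108 24 DAP 2 or 3, or any R108 mature library. For MtrunA17_Chr1g0185821 it was 0.96 ± 0.27 (limma adjusted p = 0.0239), lost under 3 of 20, without abi4-1 24 DAP library 1 or R108 mature library 2 or 3. In mature R108 the first stood at 2734, 2440 and 2533 normalized counts, below each mature abi4-1 library, and in mature abi4-2 at 9270, 8821 and 7681. Of the 20 leaders, 16 were higher in each mature abi4-1 library than in each mature R108 library, against 26.1% of all transcripts tested in abi4-1, and 17 in each mature abi4-2 library, against 25.3%. The 20 leaders of the mature seed were likewise ranked by a level that enters the difference, and the same shares of all tested apply. Of these 20, 5 had a more positive change than in R108 and 3 a more negative one, with a median log2 difference of 0.27. Those ranked 2 and 4 were among the 3, with log2 differences of -1.36 (adjusted p = 0.000306) and -0.80 (adjusted p = 0.00298). For MtrunA17_Chr7g0257731 the difference from R108 was not called, at 0.61 ± 0.56 (adjusted p = 0.489), where R108 at 24 DAP was itself variable, at 1342, 488 and 2409 normalized counts.

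Plastid transcripts changed differently in the genotypes. In R108 56 of 81 were called higher at maturity and 14 lower, with a median log2 change of 1.66, and the sum rose from 26732 to 36661 at 24 DAP to 78558 to 98490. The difference of abi4-1 from R108 was more negative for 59 of 81 (72.8%, against 9.08% of all tested) and more positive for 1, with a median of -1.64, and the number more negative ran from 50 to 65 without single libraries. Mature abi4-2 seeds, with sums of 19707 to 20330, overlapped those of mature abi4-1 (17977 to 19890). Mitochondrial sums in R108 were 724 to 797 at 24 DAP and 2060 to 2205 at maturity. The mature sums of abi4-1 (3947 to 6127) and abi4-2 (8040 to 13337) lay above those of mature R108. Of the mitochondrial identifiers 25 passed the filter in R108 and 39 in abi4-1, so the 40 tested for the difference include some that passed through abi4-1 alone. The filter therefore favours positive differences, and nothing is read from their median or from the lack of negative calls. For mitochondrial transcripts the difference had a median of 0.74 and was more negative for 0, also at an unadjusted limma p under 0.05. It was called more positive for 6 of 40 (15%), near the 11.3% of all tested. The count ran from 4 to 8 without single libraries and was 11 with a pseudocount of 10.

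**Figure D5:**
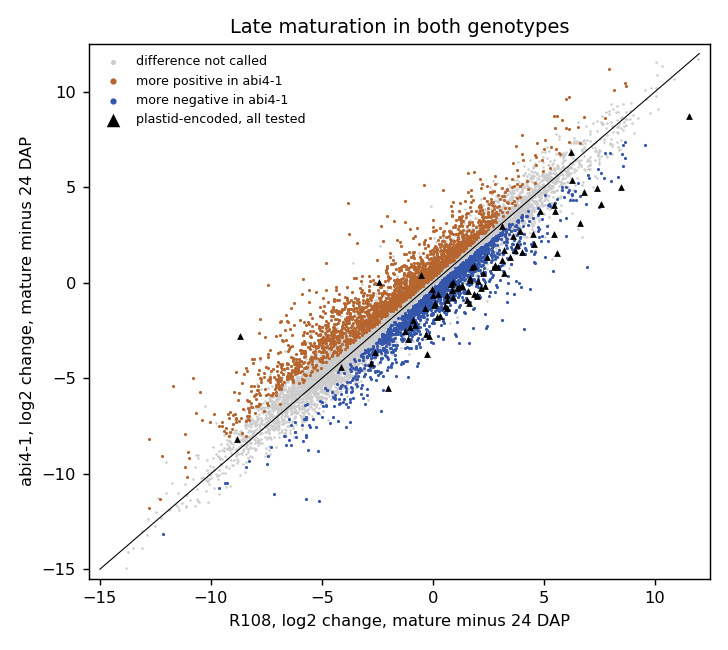
log2 change from 24 DAP to maturity in abi4-1 (vertical axis) against R108 (horizontal axis), 1 point per transcript tested in both; the line marks equal change. Coloured points have a called difference (limma adjusted p under 0.05), and the plastid-encoded transcripts (triangles) lie mostly below the line, with a median difference of -1.64.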

How the data were processed

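The deposited values carry the name FPKM but are a signal: per the file headers 1 column per library, and, from the values, normalized read counts that appear to have been scaled by the authors separately for the 3 stages. Per the submitters' processing notes Salmon was used; build, annotation and normalization tool: not given in the sources used here. Each of the 21 columns was divided by its median ratio to the geometric mean over the 18214 identifiers above 0 in all columns. Identifiers with at least 10 in at least 3 of the 6 columns were fitted with limma 3.58.1 in R 4.3.3 (intensity trend) on log2(value + 1), Benjamini-Hochberg adjusted over all tested and called at an adjusted p under 0.05. The pseudocount understates the change of low transcripts. Whole reads were not recovered, so no count model was used. The difference from R108 used 4 groups and 12 columns with the same filter over 12. When a library was left out, the tested identifiers were held fixed. The fits were tested on simulated counts. Library totals of 18365151 to 24032451 limit the precision of low levels.

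Of rising and of falling identifiers 2 each are named: among nuclear identifiers called at least 4-fold changed, and called also with values as deposited, column totals and without each library, the one of highest level and the one of largest change among those at 10 or more in each library. The transcripts described, the lists and the tests were chosen with earlier results of these data known. Replicate numbers recur in both stages, but between the stages of abi4-1 deviations of same-numbered libraries correlated at -0.0292 to 0.00518, so the numbers were not taken as pairs. Whether same-numbered abi4-1 and R108 libraries of a stage share a batch was not tested. At 24 DAP library 1 had an estimated 22673026 reads in abi4-1 and 22669980 in R108, and libraries 2 and 3 of both had 18762268 to 19024645. Chi-square per identifier between replicates was at least 3.18, and no library was counted as a copy of another. Alternatives covered the scale, pseudocount, filter, bounds of presence, replicate block, libraries left out and the set of libraries fitted.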

Additional observations from a re-analysis of the deposited data

Results flagged for a closer look

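The change from 24 DAP to maturity differed between abi4-1 and R108 for 2595 transcripts that were more positive in abi4-1 and 2087 that were more negative, by the test of the difference itself (limma, adjusted p under 0.05). These are 11.3% and 9.08% of those tested. Plastid-encoded transcripts were more negative in abi4-1 in 59 of 81 cases (72.8%). Mitochondrial-encoded ones were more positive in 6 of 40 (15%), near the share of all transcripts. Their mature sums nonetheless lay above those of R108, at 3947 to 6127 against 2060 to 2205. For MtrunA17_Chr1g0185811 the log2 difference was 0.92, and for MtrunA17_Chr1g0185821 it was 0.96, both toward a smaller fall in abi4-1. Groups had 3 libraries each, too few to look for single outlying libraries.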

How the results depend on the processing

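With values as deposited 6373 transcripts were called lower, and by at least 4-fold 6249 were higher and 3726 lower. With column totals 6555 were lower, and 6522 were at least 4-fold higher and 3945 lower. The plastid median was 0.83, 0.82 and -0.60, and the mitochondrial median 3.36, 3.41 and 2.06, with values as deposited, column totals and column totals without the 100 highest identifiers. The mitochondrial median was 1.53 with a pseudocount of 10, 2.18 with a filter of 1 and 1.76 with no filter, and 10 mitochondrial transcripts were called higher with a filter of 50. Bounds of 1 and 20 gave 232 transcripts gained and 731 lost. Without the 100 highest identifiers, 6988 were higher and 11853 lower, and upper quartiles gave 8078 and 10686.

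Leaving out each library gave 8251 to 8586 higher and 9752 to 9900 lower, 3104 to 3234 and 5651 to 5816 by at least 4-fold, 689 to 714 gained and 1718 to 1925 lost, with fewer libraries to meet the bounds. Plastid medians were -0.36 to 0.043 and mitochondrial medians 2.26 to 2.67. Differences from R108 then numbered 2077 to 2488 more positive and 1594 to 2144 more negative. With the replicate number as a block 8571 were higher and 9941 lower, and 2581 and 2079 differed from R108. The 4 named identifiers kept their call under all 18 alternatives of the comparison within abi4-1. The differences from R108 of both named rising identifiers were called under 1 of 20 alternatives, without R108 24 DAP library 2. For the scale, pseudocount and filter the cause of these shifts was not tested.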
